A study of Homo sapiens with 4 samples.

Results

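The S100 calcium-binding protein genes were followed by RNA-seq in MOLM-13 cells, an established acute myeloid leukaemia line with a KMT2A fusion and features of immature monocytic cells, in 4 libraries. The 8 genes described are S100A4, S100A6, S100A8, S100A9, S100A10, S100A11, S100A12 and S100A13. They were chosen by gene name out of the 24940 genes listed in the deposited table, and all 8 were found there. The table lists 8 further S100 genes, which serve only for comparison.

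Each library came from cells carrying lentiviral, doxycycline-induced short hairpins, and there was 1 library per group. The sh-c-Myc_sh-Bcl2 cells carried hairpins against both c-Myc, a transcription factor of growth genes, and Bcl-2, an inhibitor of mitochondrial cell death. The sh-c-Myc and sh-Bcl2 cells each carried 1 of these hairpins, and the shControl cells carried a negative control hairpin. All 4 cell pools were selected with puromycin or G418 and all 4 were treated with doxycycline, so the selection and the inducer are shared by the control. Knockdown of the proteins was examined by the submitters after 72 h of doxycycline. No source used here states when RNA was extracted, the hairpin sequences or how many hairpins each target had. The study asked how the double knockdown differs from either single knockdown.

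S100 proteins are small EF-hand proteins that mostly work as dimers and change shape on binding calcium. S100A8 and S100A9 pair into calprotectin, a major cytosolic protein of neutrophils and monocytes that is also secreted and signals through TLR4 and the receptor RAGE. S100A12 is a related secreted protein of the same cells, while S100A4, S100A6, S100A10, S100A11 and S100A13 act mainly inside cells on myosin, annexins and other partners.

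Totals were 15494138 counts in the sh-c-Myc_sh-Bcl2 library, 14421558 in sh-c-Myc, 15691129 in sh-Bcl2 and 14825763 in shControl. On the CPM scale, in which counts are divided by the library size scaled with the trimmed mean of M-values method (TMM), MYC was at 301.6, 278.2, 364.3 and 433.7 CPM in the sh-c-Myc_sh-Bcl2, sh-c-Myc, sh-Bcl2 and shControl libraries. That is 1.44-fold lower in sh-c-Myc_sh-Bcl2 and 1.56-fold lower in sh-c-Myc than in shControl, which misses the 2-fold call rule used below, so how far the c-Myc hairpin acted cannot be read from its mRNA and the libraries are named by their labels. BCL2 was at 44.52 CPM in sh-c-Myc_sh-Bcl2, 111.5 in sh-c-Myc, 38.71 in sh-Bcl2 and 119.7 in shControl, so both libraries with the Bcl-2 hairpin were at least 2.69-fold below shControl. Of 9 defining markers of MOLM-13 as a myeloid line, 8 were above 0 in every library, and the progenitor marker CD34 had at most 8 counts. Because each group is 1 library, no spread between cultures can be measured. The 95% intervals given in square brackets cover counting error only.

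All 8 genes lie on chromosome 1 (coordinates on GRCh38, GENCODE 29 annotation). S100A10 (chr1:151982915-151994390, minus strand) and S100A11 (chr1:152032506-152047907, minus) stand apart from the rest. S100A9 (chr1:153357854-153361027, plus), S100A12 (chr1:153373706-153375649, minus) and S100A8 (chr1:153390032-153391188, minus) follow each other, with S100A12 between the genes of the calprotectin pair. S100A6 (chr1:153534599-153536244, minus), S100A4 (chr1:153543613-153550136, minus) and S100A13 (chr1:153618787-153631360, minus) come next in that order.

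The bases just before the transcription start are shown for S100A8 and S100A9, which were both called higher in sh-c-Myc_sh-Bcl2 and sh-c-Myc than in shControl, for S100A12, which lies between them and was near 0, and for S100A4, the most abundant of the others in the sh-c-Myc library. Each sequence is the 250 bases before a RefSeq start (GRCh38.p14), read 5′ to 3′ on the gene's strand, with motif matches in capitals. RefSeq lists 3 starts for S100A8, and the middle one is shown.
S100A8, chr1:153391074-153391323, minus strand: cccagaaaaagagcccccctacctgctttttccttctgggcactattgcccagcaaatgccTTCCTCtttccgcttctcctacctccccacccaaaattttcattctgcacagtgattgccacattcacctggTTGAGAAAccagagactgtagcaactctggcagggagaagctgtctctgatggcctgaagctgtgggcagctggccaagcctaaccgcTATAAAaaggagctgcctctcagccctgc
S100A9, chr1:153357604-153357853, plus strand: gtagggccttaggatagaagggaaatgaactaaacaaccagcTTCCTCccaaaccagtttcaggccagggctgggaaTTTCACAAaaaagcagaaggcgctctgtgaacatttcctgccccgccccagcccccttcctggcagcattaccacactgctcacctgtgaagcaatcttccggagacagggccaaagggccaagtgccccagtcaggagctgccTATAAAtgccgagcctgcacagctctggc
S100A12, chr1:153375622-153375871, minus strand: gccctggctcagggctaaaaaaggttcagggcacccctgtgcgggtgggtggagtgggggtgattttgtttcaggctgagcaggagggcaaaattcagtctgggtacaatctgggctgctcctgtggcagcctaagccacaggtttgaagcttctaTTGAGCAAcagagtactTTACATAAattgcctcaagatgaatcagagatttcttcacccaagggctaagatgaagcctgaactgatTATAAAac
S100A4, chr1:153545807-153546056, minus strand: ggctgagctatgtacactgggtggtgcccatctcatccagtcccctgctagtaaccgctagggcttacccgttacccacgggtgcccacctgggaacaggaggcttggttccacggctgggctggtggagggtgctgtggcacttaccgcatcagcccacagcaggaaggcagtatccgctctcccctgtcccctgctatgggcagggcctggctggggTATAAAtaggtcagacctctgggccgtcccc

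Capitals mark matches, on either strand, to 4 letter patterns: CACGTG (the E-box bound by c-Myc with MAX), TTNNGNAA (C/EBP factors), GAGGAA (PU.1) and TATAAA (the TATA box). The S100A8 window holds TTCCTC, the PU.1 pattern read on the other strand, TTGAGAAA for C/EBP and TATAAA, which begin 189, 117 and 29 bases before the start. The S100A9 window holds the same 3 kinds of match in the same order, with PU.1 at 208, C/EBP at 173 and TATAAA at 29 bases before the start. This likeness is to the S100A8 window shown. The S100A8 window at start 153390976 holds 2 C/EBP matches and a TATAAA but no PU.1 match. The one at start 153391188 holds a PU.1 match only. The S100A12 window holds 2 C/EBP matches and a TATAAA that begins only 8 bases before the start. The S100A4 window holds a TATAAA 31 bases before the start. None of the 12 windows of the 8 genes holds CACGTG. Across 35116 windows of 250 bases in the same RefSeq table, CACGTG was found in 6.34%, the C/EBP pattern in 33.2%, GAGGAA in 23.6% and TATAAA in 10.7%. No 2 matches overlapped in the windows of these genes. A match is a description of letters and does not show binding.

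The level of each transcript was compared per length, in FPKM (fragments scaled to exon length and library size), as deposited. The exon length is that of all annotated exons of a gene together, so the order of genes within a library depends on the annotation. The summed level of the 8 genes was 634.8 FPKM in sh-c-Myc_sh-Bcl2, 876.8 in sh-c-Myc, 434.4 in sh-Bcl2 and 483.5 in shControl. S100A11, S100A4 and S100A6 were the 3 highest in every library, and S100A12 and S100A13 were the 2 lowest. S100A11 led in sh-c-Myc_sh-Bcl2 and sh-Bcl2, and S100A4 led in sh-c-Myc, while the counting intervals of S100A11 and S100A4 overlapped in shControl. The fourth place was held by S100A9 in the sh-c-Myc_sh-Bcl2 and sh-c-Myc libraries and by S100A10 in the sh-Bcl2 and shControl libraries. S100A8 and S100A10 did not differ beyond their counting intervals in sh-c-Myc_sh-Bcl2 (33.2 FPKM [30.4, 36.2] and 37.4 FPKM [35.0, 39.9]) or in sh-c-Myc (42.7 FPKM [39.4, 46.2] and 43.0 FPKM [40.3, 45.8]). S100A8 and S100A9 together made up 18.2% of the summed FPKM in sh-c-Myc_sh-Bcl2, 15.3% in sh-c-Myc, 7.74% in sh-Bcl2 and 3.45% in shControl.

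**Figure D1:**
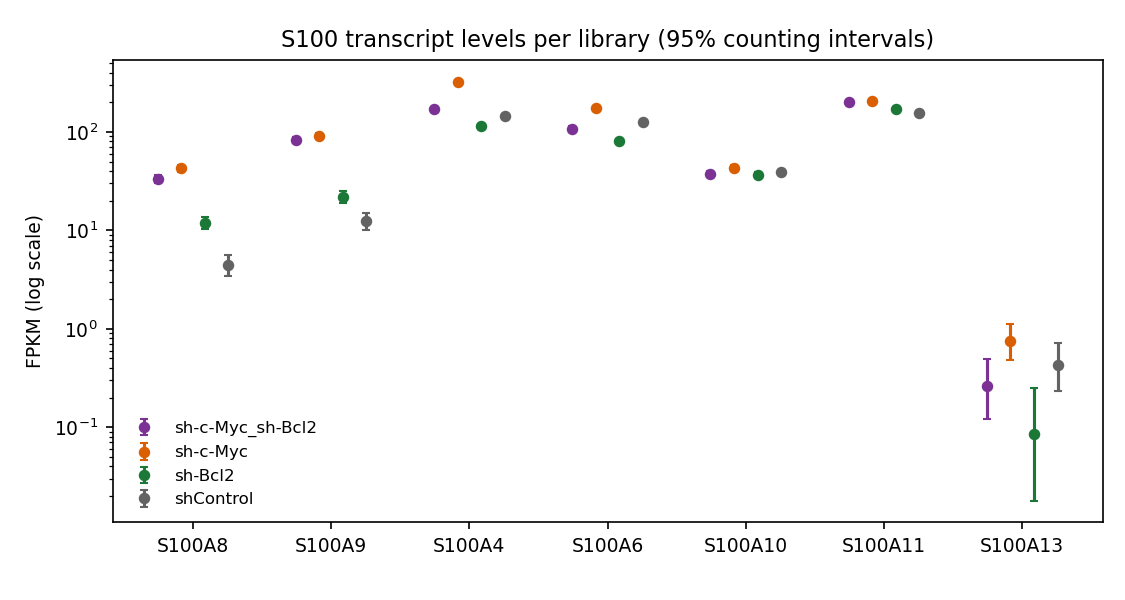
Level of 7 S100 transcripts in each library, in FPKM on a log scale, with 95% counting intervals and 1 library per group; S100A12, with at most 2 counts in any library, is not drawn. S100A8 and S100A9 stand highest in the sh-c-Myc_sh-Bcl2 and sh-c-Myc libraries, lower in sh-Bcl2 and lowest in shControl, whereas S100A10 and S100A11 lie close together in all 4.

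A gene was called in a comparison when its TMM-scaled counts, with 0.5 added, were at least 2-fold apart, the counting interval excluded a ratio of 1, and it reached 1 CPM, here of the unscaled library total, in at least 1 library. This filter kept 13726 genes and 7 of the 8 S100 genes. S100A12 did not pass it, and S100A13 passed it only through the sh-c-Myc library. No test is possible between 2 single libraries, so these calls describe the libraries. The comparisons with shControl share that library and are not independent of each other.

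The calprotectin pair was called higher in both libraries with the c-Myc hairpin. S100A8, the smaller calprotectin subunit, had 517 counts (33.2 FPKM) in sh-c-Myc_sh-Bcl2, 619 (42.7 FPKM) in sh-c-Myc, 187 (11.8 FPKM) in sh-Bcl2 and 66 (4.43 FPKM) in shControl. The sh-c-Myc_sh-Bcl2 and sh-c-Myc libraries were high and close, sh-Bcl2 stood between, and shControl was low. Against shControl, S100A8 was 7.01-fold higher [5.46, 9.27] in sh-c-Myc_sh-Bcl2, 8.42-fold higher [6.57, 11.1] in sh-c-Myc and 2.62-fold higher [1.98, 3.55] in sh-Bcl2. All 3 ratios met the call rule.

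S100A9, the larger calprotectin subunit, had 738 counts (82.5 FPKM) in sh-c-Myc_sh-Bcl2, 763 (91.7 FPKM) in sh-c-Myc, 197 (21.8 FPKM) in sh-Bcl2 and 105 (12.3 FPKM) in shControl. The sh-c-Myc_sh-Bcl2 and sh-c-Myc libraries were high and not apart beyond counting error, sh-Bcl2 stood between and shControl was lowest. S100A9 was 6.31-fold higher [5.16, 7.85] in sh-c-Myc_sh-Bcl2 and 6.54-fold higher [5.35, 8.13] in sh-c-Myc than in shControl. In sh-Bcl2 it was 1.74-fold higher [1.37, 2.23], short of the 2-fold rule, though it passed (log2 ratio 1.01) when a trend of the ratios with GC content and length was removed.

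S100A9 stood above S100A8 per exon length in every library. The size of this excess depends on the length used. All annotated exons together hold 1006 bases for S100A8 and 577 for S100A9, while their longest transcripts have 717 and 577 bases. The counting intervals do not cover this choice, and the lengths cancel in the division by shControl below. The ratio of S100A9 to S100A8 was 2.49 [2.22, 2.79] in sh-c-Myc_sh-Bcl2, 2.15 [1.93, 2.39] in sh-c-Myc, 1.84 [1.5, 2.26] in sh-Bcl2 and 2.77 [2.02, 3.83] in shControl. Divided by the shControl value, this ratio was 0.897 [0.647, 1.25] in sh-c-Myc_sh-Bcl2, 0.775 [0.559, 1.07] in sh-c-Myc and 0.662 [0.459, 0.956] in sh-Bcl2. On counting error, the interval excludes 1 for sh-Bcl2 and includes it for sh-c-Myc_sh-Bcl2 and sh-c-Myc.

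S100A12, the third calgranulin, had 0 counts in sh-c-Myc_sh-Bcl2, 1 in sh-c-Myc, 2 in sh-Bcl2 and 0 in shControl. A count of 0 allows up to 3 counts, or 0.192 CPM in sh-c-Myc_sh-Bcl2 and 0.213 CPM in shControl. Every library was at or under that floor, so no fold is given.

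**Figure D2:**
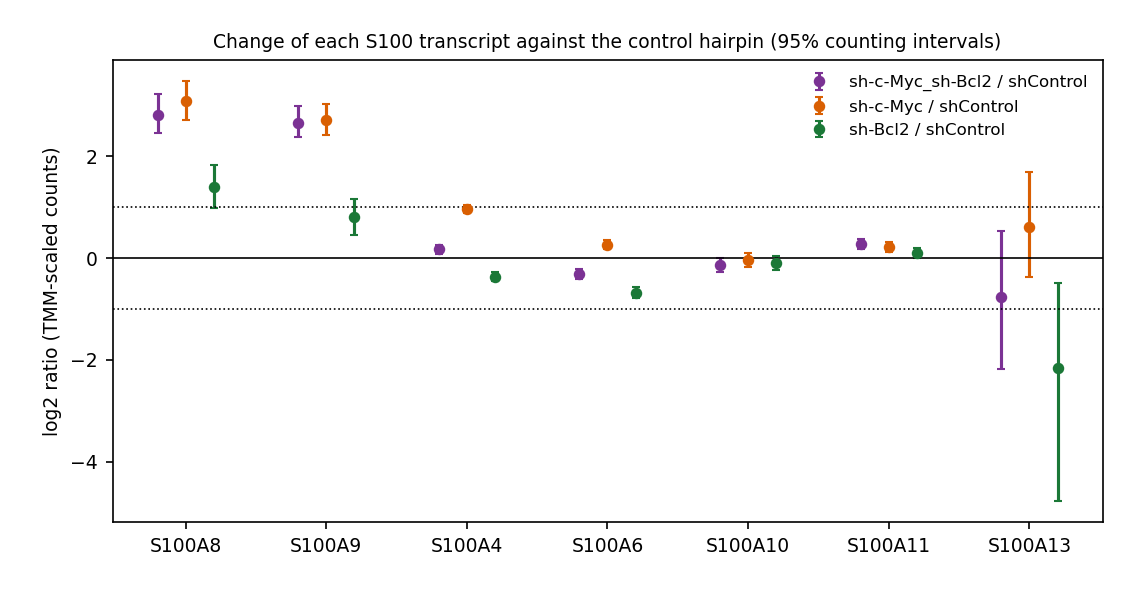
Log2 ratio of TMM-scaled counts of 7 S100 transcripts against shControl, for sh-c-Myc_sh-Bcl2, sh-c-Myc and sh-Bcl2, with 95% counting intervals; dotted lines mark 2-fold. S100A8 and S100A9 lie above the 2-fold line for sh-c-Myc_sh-Bcl2 (2.81 and 2.66) and sh-c-Myc (3.07 and 2.71), S100A4 touches it only for sh-c-Myc (0.96), and S100A13 has wide intervals.

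S100A4, which binds the non-muscle myosin heavy chain MYH9 and is linked to cell motility, was highest in sh-c-Myc. It had 2738 counts (172 FPKM) in sh-c-Myc_sh-Bcl2, 4730 (320 FPKM) in sh-c-Myc, 1831 (114 FPKM) in sh-Bcl2 and 2195 (144 FPKM) in shControl. Relative to shControl its log2 ratio was 0.17 [0.09, 0.25] for sh-c-Myc_sh-Bcl2, 0.96 [0.89, 1.03] in sh-c-Myc and -0.37 [-0.46, -0.28] in sh-Bcl2. The sh-c-Myc value of 1.95-fold missed the 2-fold rule and passed it with total-count or upper-quartile scaling, with FPKM plus 1 or plus 0.1 and with the GC and length trend taken out, at log2 ratios of 1.14 to 1.20.

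S100A6, calcyclin, a partner of the ubiquitin ligase adaptor CACYBP, was also highest in sh-c-Myc and lowest in sh-Bcl2. It had 1631 counts (108 FPKM) in sh-c-Myc_sh-Bcl2, 2422 (173 FPKM) in sh-c-Myc, 1227 (80.5 FPKM) in sh-Bcl2 and 1828 (127 FPKM) in shControl. Both libraries with the Bcl-2 hairpin were below shControl and sh-c-Myc was above it. In sh-c-Myc_sh-Bcl2 its log2 ratio was -0.31 [-0.41, -0.22] against shControl, and 0.02 once the trend with GC and length was taken out. It was 0.26 [0.17, 0.35] for sh-c-Myc and -0.68 [-0.78, -0.57] for sh-Bcl2. The S100A6 transcript has 60.2% GC, above 87.1% of the genes in the calls, and 2.4% of its exonic bases overlap an antisense gene with at most 2 counts.

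S100A10, the annexin A2 partner that has lost calcium binding, was nearly level. It had 894 counts (37.4 FPKM) in sh-c-Myc_sh-Bcl2, 957 (43.0 FPKM) in sh-c-Myc, 887 (36.6 FPKM) in sh-Bcl2 and 886 (38.7 FPKM) in shControl. Its log2 ratios to shControl were -0.14 in sh-c-Myc_sh-Bcl2, -0.04 in sh-c-Myc and -0.10 in sh-Bcl2, and each turned positive (0.12, 0.18 and 0.07) once the GC and length trend was taken out, the sh-c-Myc value also with total counts (0.15) and upper-quartile scaling (0.15). No ratio of S100A10 in any of the 5 comparisons reached 2-fold.

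S100A11, which binds annexin A1, was among the 3 most abundant of the 8 in every library. It had 2114 counts (201 FPKM) in sh-c-Myc_sh-Bcl2, 2016 (206 FPKM) in sh-c-Myc, 1808 (169 FPKM) in sh-Bcl2 and 1575 (156 FPKM) in shControl. Relative to shControl the log2 ratio of S100A11 was 0.28 [0.18, 0.37] for sh-c-Myc_sh-Bcl2, 0.21 [0.11, 0.31] in sh-c-Myc and 0.10 [0.00, 0.19] in sh-Bcl2. These differences were small beside those of S100A8 and S100A9.

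S100A13, which takes part in the release of leaderless proteins such as FGF1, was close to the floor. It had 9 counts in sh-c-Myc_sh-Bcl2, 24 in sh-c-Myc, 3 in sh-Bcl2 and 14 in shControl, or 0.262, 0.751, 0.0863 and 0.426 FPKM. It was called lower in sh-Bcl2 than in shControl, by 4.45-fold [1.4, 27.2], on 3 counts. Of its exonic bases 33.5% are shared with other genes, among them S100A1 on the opposite strand, and no source used here states whether the counting used strand, so its counts are uncertain.

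Set against all genes, 2 of the 7 S100 genes in the filter were called in the sh-c-Myc_sh-Bcl2 comparison with shControl, both higher, where 13.1% of all genes were called (7.11% higher and 5.95% lower). In sh-c-Myc against shControl the same 2 genes were called higher, where 22.5% of all genes were called (12.7% higher and 9.8% lower). For sh-Bcl2 relative to shControl, S100A8 was called higher and S100A13 lower, where 4.61% of all genes were called (2.46% higher and 2.16% lower). The median log2 ratio of the 7 genes was 0.17 in sh-c-Myc_sh-Bcl2, 0.61 in sh-c-Myc and -0.10 in sh-Bcl2, beside -0.01, -0.02 and 0.00 over all genes in the filter. The sh-c-Myc median is the value of S100A13 (24 against 14 counts, [-0.38, 1.70]), which entered the filter only through that library, so this median supports nothing. The scaling moves medians and calls: over genes averaging 50 counts or more, the median log2 ratio of sh-c-Myc to shControl was -0.11 with TMM and 0.08 with total counts, and the share of calls that were higher was 56.5% and 71.0%. For sh-c-Myc_sh-Bcl2 against shControl that share was 54.4% with TMM and 64.4% with upper-quartile scaling.

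**Figure D3:**
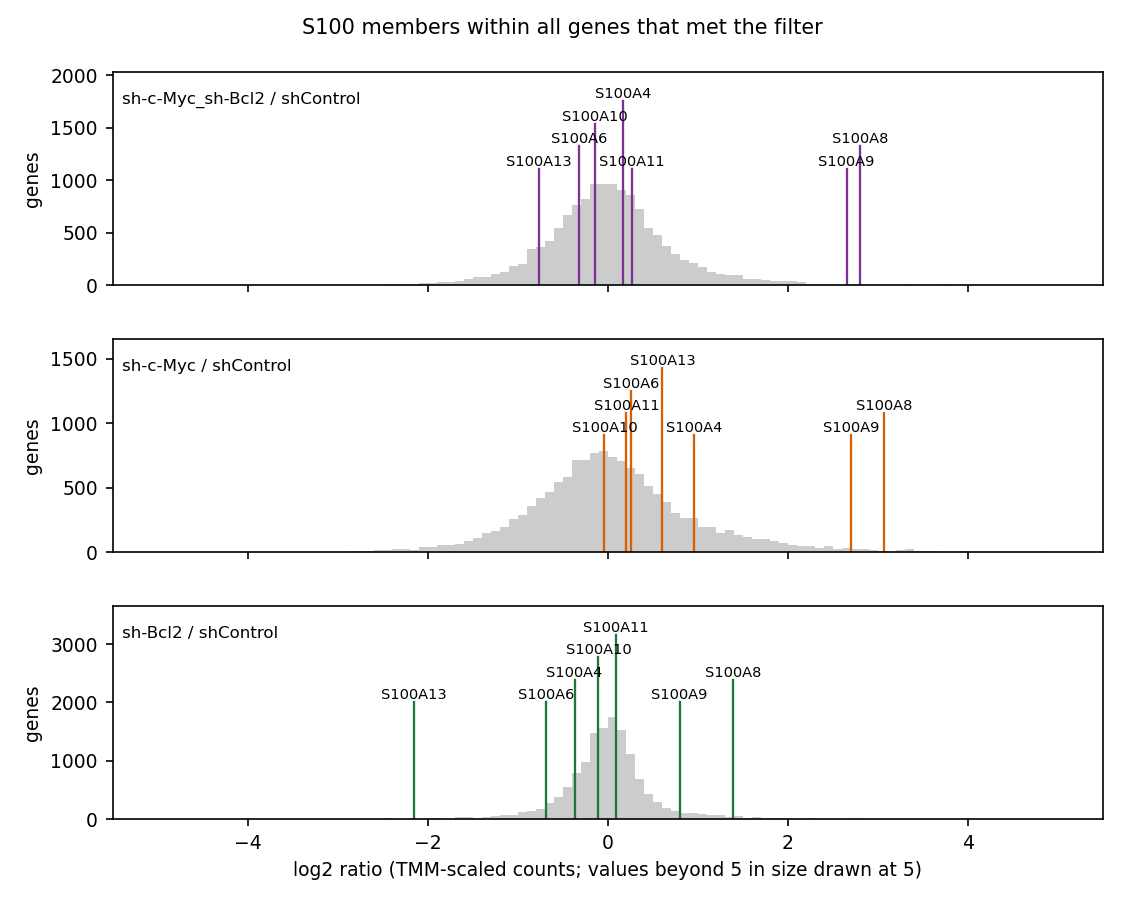
Histograms of the log2 ratio to shControl over the 13726 genes in the filter, 1 panel for each knockdown library, with the 7 S100 genes marked by lines whose height has no meaning. S100A8 and S100A9 lie in the upper tail in every panel, and S100A4 lies further right for sh-c-Myc (0.96) than for sh-c-Myc_sh-Bcl2 (0.17) or sh-Bcl2 (-0.37).

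On top of the c-Myc hairpin, the Bcl-2 hairpin went with no higher calprotectin genes. The log2 ratio of sh-c-Myc_sh-Bcl2 to sh-c-Myc was -0.26 [-0.44, -0.09] for S100A8 and -0.05 [-0.20, 0.10] for S100A9, which was 0.01 with the GC and length trend removed. S100A4 and S100A6 were lower in the double knockdown than in sh-c-Myc, at -0.79 [-0.86, -0.72] and -0.57 [-0.67, -0.48], without reaching 2-fold. S100A13 had 9 counts in sh-c-Myc_sh-Bcl2 against 24 in sh-c-Myc, 2.59-fold lower [1.2, 6.54]. It entered the filter only through sh-c-Myc, which fixed its direction here, so its call is a description and supports nothing. Of the other 6 genes in the filter 0 were called, where 6.51% of all genes were called (1.65% higher and 4.85% lower).

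On top of the Bcl-2 hairpin, the c-Myc hairpin went with higher S100A8 and S100A9. The sh-c-Myc_sh-Bcl2 library exceeded sh-Bcl2 by 2.67-fold [2.26, 3.18] for S100A8 and 3.62-fold [3.1, 4.27] for S100A9. These 2 of 7 genes were called, where 8.8% of all genes were called (5.19% higher and 3.61% lower). S100A4 stood 1.45-fold higher [1.36, 1.54] and S100A6 1.29-fold higher [1.19, 1.39] in the same comparison, below the 2-fold rule.

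Departure from additivity was measured by subtracting both single-knockdown log2 ratios from that of the double knockdown, all taken to shControl. For S100A8 it was -1.66 [-2.09, -1.22], so the double knockdown lay 3.15-fold below the product of the single ratios. For S100A9 it was -0.85 [-1.22, -0.48], which missed the 2-fold rule. S100A4 departed by -0.43 [-0.54, -0.31], whereas S100A6 (0.10 [-0.03, 0.24]), S100A10 (0.00 [-0.19, 0.19]) and S100A11 (-0.03 [-0.16, 0.10]) had intervals that include 0. S100A8 was the 1 of 7 genes called here, where 8.84% of all genes were called (3.02% above and 5.81% below additivity). The share of all these calls that were positive was 34.2% with TMM, 22.2% with total counts and 20.9% with upper-quartile scaling.

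**Figure D4:**
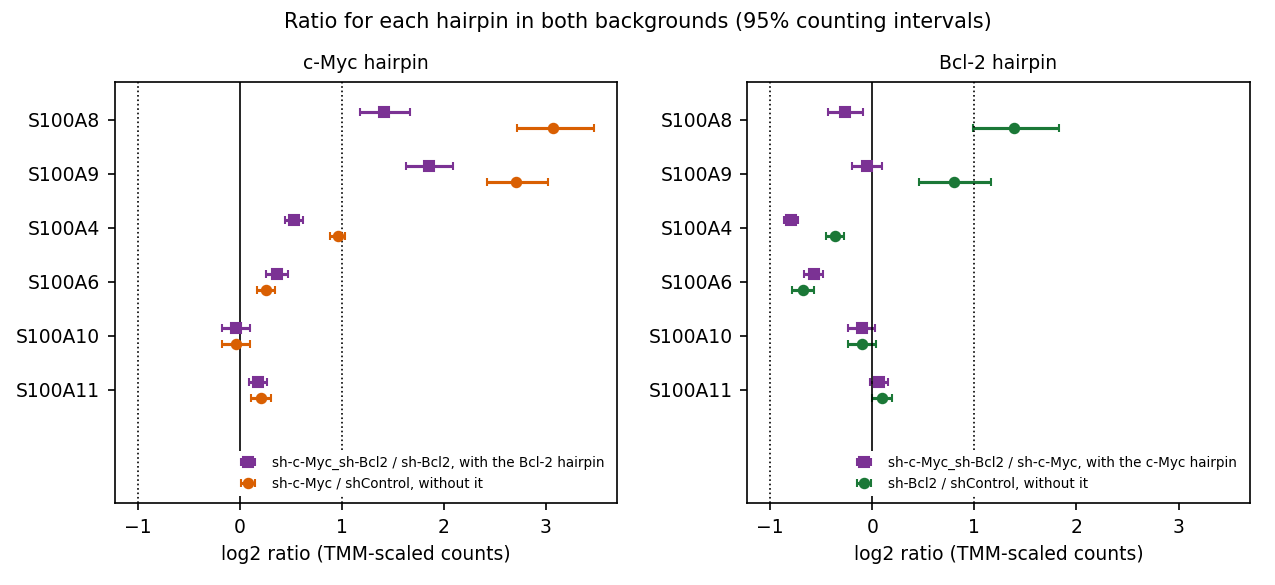
Log2 ratio of TMM-scaled counts for each hairpin, with the other hairpin present (squares) and absent (circles), for 6 S100 transcripts with 95% counting intervals; dotted lines mark 2-fold. For S100A8 the c-Myc hairpin ratio is 1.42 with and 3.07 without the Bcl-2 hairpin, and the Bcl-2 hairpin ratio is -0.26 with and 1.39 without the c-Myc hairpin, while for S100A10 and S100A11 both symbols lie near 0.

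A test across libraries was possible only by fitting both hairpins together, since 2 libraries carried each hairpin and 2 did not. This fit used edgeR's quasi-likelihood test on 12885 genes with 1 residual degree of freedom, in which non-additivity and the spread between libraries cannot be told apart. It covered 6 of the 8 S100 genes, without S100A12 and S100A13. For the c-Myc hairpin, 3 of the 6 rose at a Benjamini-Hochberg adjusted p under 0.05 and 0 fell, where 23.4% of all genes were called (9.2% higher and 14.2% lower). S100A9 rose by a log2 effect of 2.27 (SE 0.232, adjusted p = 0.000232), and S100A8 rose by 2.19 (SE 0.324, adjusted p = 0.00108). S100A4 rose by 0.75 (SE 0.167, adjusted p = 0.0081). S100A6 (0.31, adjusted p = 0.159), S100A11 (0.20, adjusted p = 0.379) and S100A10 (-0.04, adjusted p = 0.898) did not pass, although S100A6 passed with total-count scaling (0.44, adjusted p = 0.0236). All 3 genes that passed were higher with the c-Myc hairpin both in the presence and in the absence of the Bcl-2 hairpin. MYC itself had a log2 effect of -0.46 (adjusted p = 0.0792) in this fit.

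For the Bcl-2 hairpin the same edgeR fit called 0 of the 6 S100 genes, and 0.0388% of all genes (0.0155% higher and 0.0233% lower). S100A6 (-0.63, unadjusted p = 0.00144, adjusted p = 0.475) and S100A4 (-0.58, unadjusted p = 0.00448, adjusted p = 0.572) were the 2 genes at an unadjusted p under 0.05. DESeq2 and limma-voom also called 0 and had the same 2 genes under that unadjusted threshold, whereas edgeR with total-count scaling called both, as lower. S100A8 had a log2 effect of 0.45 (adjusted p = 0.758) and S100A9 of 0.32 (adjusted p = 0.757).

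Most receptors and co-receptors of secreted S100 proteins were detected in the cells. Of 13 listed genes, 11 passed the filter, and 3 of these were called higher in sh-c-Myc_sh-Bcl2 than in shControl, 3 higher in sh-c-Myc and 0 in sh-Bcl2, with 0 called lower in any of the 3. Over all genes 7.11%, 12.7% and 2.46% were called higher in the same comparisons. TLR4, the toll-like receptor that calprotectin can activate, was at 7.932, 12.25, 4.492 and 2.626 CPM in sh-c-Myc_sh-Bcl2, sh-c-Myc, sh-Bcl2 and shControl. CD36, a scavenger receptor that takes up fatty acids, was at 163.6, 189.6, 65.27 and 34.07 CPM in the same order. ITGAM, the integrin chain of Mac-1, was at 192.9, 234.9, 94.2 and 78.15 CPM. All 3 were highest in sh-c-Myc and lowest in shControl, as S100A8 was. AGER, which encodes RAGE and was chosen after its values were seen, was at 5.31, 5.965, 4.492 and 4.897 CPM, with counting intervals of the ratios to shControl that include no change. LY96, of the same list and also chosen after its values were seen, had 9, 13, 9 and 15 counts in the same order. It was not called.

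Among intracellular partners of the S100 proteins, 24 of 25 genes in the table passed the filter. In sh-c-Myc_sh-Bcl2 against shControl 3 were called higher, in sh-c-Myc 4 and in sh-Bcl2 1, and 0 were called lower, where 13.1%, 22.5% and 4.61% of all genes were called in either direction. These shares of the list lie near or below those of all genes called in either direction. They lie above the 7.11%, 12.7% and 2.46% of all genes called higher, on few genes and without a test. Among the called genes were CYBB, the catalytic chain of the phagocyte NADPH oxidase, to which calprotectin delivers arachidonic acid, and AHNAK, a scaffold bound by the S100A10 and annexin A2 complex. CYBB was at 6.013 CPM in sh-c-Myc_sh-Bcl2, 4.746 in sh-c-Myc, 2.907 in sh-Bcl2 and 0.5678 in shControl. NCF1, a cytosolic oxidase subunit, was at 78.24, 104.3, 47.17 and 29.1 CPM in the same order, although NCF1 has near-identical pseudogenes that can share its reads. The oxidase genes did not move as a set. CYBA and NCF4, of the same list and chosen after their values were seen, were not called. CYBA was at 128.1, 139.8, 99.36 and 173.8 CPM, highest in shControl, and NCF4 was at 61.22, 106.1, 60.97 and 79.99 CPM. AHNAK was called only in sh-c-Myc, with 2423 CPM against 1188 CPM in shControl (log2 ratio 1.03), while sh-c-Myc_sh-Bcl2 had 2274 CPM (0.94).

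The direct partners of the other S100 proteins moved less, and those named here were chosen after their values were seen. MYH9, the myosin partner of S100A4, was at 1547, 1617, 1196 and 1188 CPM in sh-c-Myc_sh-Bcl2, sh-c-Myc, sh-Bcl2 and shControl. ANXA2, the partner of S100A10, was at 99.6, 80.36, 121.7 and 86.38 CPM in the same order. ANXA1, the partner of S100A11, was at 23.41, 28.41, 23.39 and 19.09 CPM, and CACYBP, the partner of S100A6, had log2 ratios to shControl of -0.46 in sh-c-Myc_sh-Bcl2, -0.95 in sh-c-Myc and 0.03 in sh-Bcl2. None of these 4 genes met the call rule against shControl.

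Of 24 transcription factor genes listed for myeloid S100 genes, 23 passed the filter, and against shControl 4 were called higher in sh-c-Myc_sh-Bcl2, 5 in sh-c-Myc and 0 in sh-Bcl2, with 2 called lower in sh-c-Myc. Over all genes 13.1%, 22.5% and 4.61% were called in either direction, and 7.11%, 12.7% and 2.46% were called higher. The counts of the list are small, and no test was run against these shares. CEBPD, a C/EBP factor of the inflammatory response, was at 60.84, 77.8, 34.88 and 28.96 CPM in sh-c-Myc_sh-Bcl2, sh-c-Myc, sh-Bcl2 and shControl. CEBPE, a C/EBP factor of late granulocytes, was at 3.646, 3.848, 1.255 and 1.136 CPM, and KLF4, a factor of monocyte maturation, was at 34.8, 39.32, 14.27 and 12.07 CPM. KLF2 was called higher in the same libraries and JUN in sh-c-Myc. EGR1 and JUNB were called lower in sh-c-Myc, with EGR1 at 84.51, 3.335, 65.2 and 46.77 CPM. SPI1, which encodes PU.1 and was chosen after its values were seen, was at 196.8, 251.9, 138.7 and 173.2 CPM and was not called.

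Monocyte markers as a sum were ordered with shControl lowest, as S100A8 and S100A9 were, whereas the neutrophil sum was lowest in sh-Bcl2. Summed over 19 monocyte markers, the level was 1679 CPM in sh-c-Myc_sh-Bcl2, 1502 in sh-c-Myc, 958.7 in sh-Bcl2 and 775.8 in shControl. Of the 14 that passed the filter, 8 were called higher in sh-c-Myc_sh-Bcl2, 6 in sh-c-Myc and 3 in sh-Bcl2, with 0 lower. Over all genes 7.11%, 12.7% and 2.46% were called higher in the same comparisons. CLEC7A, 1 of those called in sh-c-Myc_sh-Bcl2, entered the filter only through that library (17 counts), which fixed its direction. Summed over 12 neutrophil granule and maturation genes, the level was 4785 CPM in sh-c-Myc_sh-Bcl2, 4936 in sh-c-Myc, 1621 in sh-Bcl2 and 2408 in shControl. Of the 8 that passed, 6 were called higher in sh-c-Myc_sh-Bcl2 and 5 in sh-c-Myc, while in sh-Bcl2 1 was higher and 1 lower. The same shares over all genes apply, with 2.16% called lower in sh-Bcl2. PADI4, called higher in all 3 comparisons, entered the filter only through sh-c-Myc (58 counts), which fixed its direction there. Its sh-Bcl2 call rests on 7 counts against 0. The monocyte receptor gene CSF1R was at 151.8, 179.1, 35.67 and 18.95 CPM in sh-c-Myc_sh-Bcl2, sh-c-Myc, sh-Bcl2 and shControl. Not every monocyte marker followed the sum. CSTA, of the same list and chosen after its values were seen, was at 44.33, 59.26, 47.3 and 70.91 CPM, highest in shControl. The granule enzyme gene MPO was at 660.2, 652.2, 164.0 and 131.2 CPM in the same order. CTSG, another granule enzyme gene, was called lower in sh-Bcl2 and was at 206.2, 271.7, 144.5 and 343.7 CPM, highest in shControl. AZU1, chosen after its values were seen, was at 2179, 2523, 811.8 and 1387 CPM. CD14, FCN1 and VCAN, which mark classical monocytes beside S100A12, had at most 19 counts in any library. In these bulk libraries fewer cells of a type and less RNA per cell cannot be told apart, and the part of a change in cell makeup in the S100A8 and S100A9 values was not tested.

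Markers of other cell types were low, apart from CD4 and NKG7 of the T and NK list. The summed level over 4 erythroid genes was at most 0.706 CPM in any library, and that over 3 epithelial and fibroblast genes was 0.576, 1.28, 0.529 and 0.426 CPM in sh-c-Myc_sh-Bcl2, sh-c-Myc, sh-Bcl2 and shControl. Over 5 megakaryocyte genes it was 6.14, 10.97, 6.67 and 6.88 CPM, and over 6 B cell genes 3.77, 5.32, 2.51 and 3.62 CPM. Over 4 T and NK cell genes it was 214.4, 230.4, 192.8 and 221.9 CPM, with CD4, which monocytic cells also express, the highest of them in every library. NKG7, a granule membrane gene of cytotoxic lymphocytes, followed at 52.9, 58.43, 67.25 and 67.78 CPM in the same order, lowest in sh-c-Myc_sh-Bcl2. Of the 4 erythroid genes 0 passed the filter, so none could be called. Of the 3 megakaryocyte and 2 T and NK genes that passed, 0 were called against shControl in the 3 knockdown libraries. Over all genes 13.1%, 22.5% and 4.61% were called in sh-c-Myc_sh-Bcl2, sh-c-Myc and sh-Bcl2. A value of 0 among so few genes supports nothing. PAX5, of the B cell list, was called lower in all 3. It entered the filter only through shControl (18 counts), which these comparisons share. CD79A, of the same list, and KRT8, with 17 counts against 5, were called higher in sh-c-Myc, through which alone KRT8 entered the filter. The filter thus fixed the direction of the PAX5 and KRT8 calls, which are descriptions and support nothing. HBB, of the erythroid list, was at 0 in sh-c-Myc_sh-Bcl2, sh-c-Myc and shControl, and JCHAIN and CD79B, of the B cell list, were at 0 in the 3 knockdown libraries.

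The genes whose pattern was most like that of S100A8 were sought among 9534 genes that reached 10 CPM in some library, by the Euclidean distance over the 3 log2 ratios to shControl, which share that library. The 5 nearest were FCER2 (distance 0.16), HSH2D (0.49), PTAFR (0.49), CSF1R (0.54) and LYZ (0.57). FCER2, which encodes the low-affinity IgE receptor, was at 88.3 CPM in sh-c-Myc_sh-Bcl2, 90.8 in sh-c-Myc, 30.1 in sh-Bcl2 and 11.6 in shControl. The 5 nearest to S100A9 were PTAFR (0.23), NCALD (0.24), FGD2 (0.32), HSH2D (0.36) and ICA1 (0.38). PTAFR, the receptor of platelet-activating factor, was at 99.9, 106, 31.0 and 15.4 CPM in the same order of libraries and stands in both lists, as HSH2D does.

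Of 13 other S100 genes listed, 8 were in the table and 3 passed the filter. S100P, a member encoded on chromosome 4, ran opposite to S100A8 and S100A9, with 328 counts (16.5 FPKM) in sh-c-Myc_sh-Bcl2, 421 (22.8 FPKM) in sh-c-Myc, 490 (24.4 FPKM) in sh-Bcl2 and 843 (44.4 FPKM) in shControl. It was called lower in sh-c-Myc_sh-Bcl2, by 2.85-fold [2.51, 3.25], and in sh-c-Myc, by 2.21-fold [1.97, 2.5], and it fell with the c-Myc hairpin in the edgeR fit (log2 effect -0.89, adjusted p = 0.00666). S100A3, whose gene lies within the span of S100A4 on the same strand without shared exonic bases, had 41, 66, 13 and 17 counts in sh-c-Myc_sh-Bcl2, sh-c-Myc, sh-Bcl2 and shControl. S100A3 was called higher in sh-c-Myc_sh-Bcl2 (2.14-fold [1.21, 4.08]) and in sh-c-Myc (3.43-fold [2.03, 6.38]), the library in which S100A4 was also highest. S100A1 had 15, 16, 18 and 8 counts in the same order and was not called.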

How the data were processed

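RNA-seq libraries of 4 MOLM-13 cell pools, 1 per group, were prepared from total RNA with the NEBNext Ultra kit, per the labels' protocols. Reads were processed with HISAT2 and HTSeq 0.13.5 against GRCh38, per the submitters' processing notes; no source used here states the role of each tool, the HISAT2 version, the annotation release or the strand setting. The deposited table holds raw read counts per gene and FPKM computed by the authors. The lengths implied by the deposited counts and FPKM equal GENCODE 29 exon lengths for all 16 S100 genes in the table.

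Counts were scaled with TMM factors from edgeR 4.0.16 (0.95 to 1.08), and ratios used a prior count of 0.5 with an exact conditional binomial 95% interval. This interval covers counting error only, since 1 library per group gives no spread between cultures. It also treats reads as independent molecules, which they are not. Marker and partner levels are TMM-scaled CPM computed from the counts. The fit of both hairpins used edgeR's quasi-likelihood test on counts, with genes at 1 CPM or more in at least 2 libraries and p-values adjusted over all 12885 genes by Benjamini-Hochberg. SEs were derived from its F statistic. Alternatives used DESeq2 1.42.0, limma 3.58.1, other scalings, other filters, a 1.5-fold rule and FPKM with 1 or 0.1 added. A fit that takes out the GC and length trend was chosen after seeing the data. The scripts were tested on simulated counts.

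The S100 genes and the gene lists were chosen with earlier results of these data known. Genes named were all 8 S100 genes, the targets, other S100 genes in the filter, called members of each list (at most 5 per comparison) and the 5 nearest genes to S100A8 and S100A9; exceptions are marked. Promoter windows are from RefSeq (GRCh38.p14), with 8 of 8 genes matched by symbol.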

Additional observations from a re-analysis of the deposited data

Results flagged for a closer look

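The S100A8 ratios for the Bcl-2 hairpin had opposite signs in the 2 backgrounds, although only the one without the c-Myc hairpin met the 2-fold call rule. Its log2 ratio was -0.26 [-0.44, -0.09] in sh-c-Myc_sh-Bcl2 against sh-c-Myc and 1.39 [0.99, 1.83] in sh-Bcl2 against shControl, where brackets hold 95% counting intervals. The difference between these is the S100A8 departure from additivity given above (-1.66 [-2.09, -1.22]), not a separate result. It was not tested, since each library is the only 1 of its group.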

How the results depend on the processing

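Over 54 values of single S100 genes and their alternatives, 0 reversed a called direction, 0 lost a call of the edgeR fit, 3 gained one, 55 moved by more than their counting interval and 392 did none of these. In sh-c-Myc against shControl 2 S100 genes were called, and 3 (with S100A4) with total counts, upper-quartile scaling, a 1.5-fold rule, FPKM plus 1 or 0.1, or the GC and length trend removed. In sh-Bcl2 against shControl 2 S100 genes were called, 4 with a 1.5-fold rule, and 1 (S100A8) for genes averaging 50 counts or more or with FPKM plus 1. In sh-c-Myc_sh-Bcl2 against sh-c-Myc 1 was called, 2 with a 1.5-fold rule, and 0 with the 50-count mean or FPKM plus 1. For the departure from additivity 1 was called, and 2 (S100A8 and S100A9) with a 1.5-fold rule or with the GC and length trend removed. For the Bcl-2 hairpin in the edgeR fit 0 were called, and 2 with total counts. The S100A13 calls rest on at most 24 counts.

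Over all genes, the Bcl-2 hairpin fit called 5 genes, 123 with total counts, 58 with no filter, 13 with DESeq2 and 3 with limma-voom or DESeq2 size factors. Calls against shControl changed by over 1.5 times with a 1.5-fold rule (3863, 5539 and 1393 genes in sh-c-Myc_sh-Bcl2, sh-c-Myc and sh-Bcl2, beside 1793, 3089 and 633), for genes averaging 50 counts or more (996, 1872 and 163) and with FPKM plus 1 (593, 1342 and 100). The same settings gave 2075, 213 and 157 calls in sh-c-Myc_sh-Bcl2 against sh-c-Myc, beside 893, then 2903, 561 and 298 against sh-Bcl2, beside 1208, and 2636, 505 and 375 for the departure from additivity, beside 1213. The cause was not tested. Leaving out a library was not possible, because 3 libraries leave the fit of both hairpins with no residual degree of freedom. No paired analysis was possible because each group has 1 library.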

Other observations

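A list of calcium-binding genes outside the S100 family, mostly of EF-hand proteins, is described here. Of 28 that passed the filter, 2 were called higher in sh-c-Myc_sh-Bcl2 than in shControl, 1 was called higher and 2 lower in sh-c-Myc, and 0 were called in sh-Bcl2, where 13.1%, 22.5% and 4.61% of all genes were called in either direction. CAPN2, the large chain of a calcium-dependent protease, was at 139.7, 157.3, 72.53 and 65.58 CPM in sh-c-Myc_sh-Bcl2, sh-c-Myc, sh-Bcl2 and shControl. GCA, grancalcin of neutrophils, was at 29.55, 23.6, 14.47 and 13.13 CPM in the same order. CALR, the calcium-storing chaperone of the endoplasmic reticulum, was at 777.1, 516.0, 1318 and 1444 CPM, and LETM1, a mitochondrial ion exchanger component, was at 66.91, 51.37, 119.2 and 121.7 CPM, so both were lowest in sh-c-Myc, the library with the highest S100A4, S100A6 and S100A8.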
